A study of Mus musculus with 18 samples.

Results

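Scavenger receptors are cell surface proteins of several unrelated families that bind modified lipoproteins, microbial surfaces and dying cells. The receptors described here are Cd36, Scarb1 and Scarb2 of class B, Msr1 and Marco of class A, Olr1 of class E, Stab1 of class H, Cd68 of class D and Lrp1 of class L, so that 9 of the 49315 counted genes were examined. They were named as a family of receptors with earlier results of these data known, by a rule that uses no measured value, and each symbol was matched to 1 Ensembl identifier of the GRCm38 annotation. All 9 had counts in each of the 18 libraries, and all 9 passed the filter on low counts in each comparison.

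In macrophages, scavenger receptors take up oxidized or acetylated low-density lipoprotein without the feedback that limits the native low-density lipoprotein receptor, and several of them tether apoptotic cells or help to engulf them. The clearance of apoptotic cells is called efferocytosis, and it brings the macrophage a load of membrane lipid and cholesterol. Peroxisome proliferator-activated receptors, liver X receptors and PU.1 are transcription factors known to act on genes of this group.

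Macrophages were grown for this experiment from mouse femoral bone marrow in medium conditioned by L929 cells, and total RNA was sequenced. Mice labelled HDAC3 KO are described as lacking the histone deacetylase HDAC3 in myeloid cells: they carried loxP sites around an exon of Hdac3 and a Cre recombinase in the Lyz2 locus, with floxed parents on the C57BL/6J background, so that deletion is limited to cells that express Lyz2. The controls are labelled WT, while the study's text names HDAC3 f/f mice as the source of these cells, so the label and the methods differ on whether they carry the floxed allele. The macrophages were left untreated, cocultured with apoptotic cells (ACs) or cocultured with non-apoptotic cells (NACs). K562, a leukemia line of human origin, supplied both kinds of cells: ACs had been irradiated with UV-B for 15 min and rested for 2 h, and NACs had not. The coculture lasted 45 min, the suspended cells were washed off, and RNA was taken 5 h later. Each of the 6 groups held 3 libraries, described in the study's methods as biological replicates from 3 animals. The ages and sexes of the mice were not used here.

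Library totals ranged from 4704491 counts in untreated HDAC3 KO replicate 1 to 26421267 counts. Hdac3, the targeted gene, stood at 3.38 to 48.7 CPM, counts scaled to a common library size, in the libraries labelled WT and at 4.66 to 74.5 CPM in those labelled HDAC3 KO. The level of Hdac3 therefore did not separate the genotypes, the counts cover the whole gene and not the deleted exon alone, and every direction below is that of libraries labelled HDAC3 KO relative to libraries labelled WT. The labels could thus not be checked by Hdac3, and whether any library carries a wrong label was not tested. For macrophages with ACs, the study reports more CD5L, AXL and LRP1 mRNA in HDAC3 KO than in control cells by RT-PCR. By western blot it reports more CD5L, unchanged LRP1 and no detectable AXL. The study took these genes from its RNA-seq of these macrophages, so they cannot serve as a check of the labels. Here the means with ACs under WT and HDAC3 KO were 103 and 388 CPM for Cd5l and 217 and 381 CPM for Lrp1. Neither gene passed the quasi-likelihood test of edgeR between these groups (adjusted p = 0.239 for Lrp1). Axl was not examined here. Lyz2, the locus that drives Cre, had means of 8350 and 2374 CPM in WT and HDAC3 KO untreated. The means were 3982 and 8925 CPM with NACs and 3869 and 6889 CPM with ACs, so that the order untreated was opposite to that in both cocultures. All 8 macrophage markers examined, Lyz2 among them, were above 3 counts in each group, and their summed level lay between 8521 and 20133 CPM. Of markers of other cells, the adipocyte markers Plin1 and Lep had at most 3 counts in every library. The 8 endothelial markers, with Lyve1 alone at 3 counts or fewer throughout, summed to 7.02 to 52.7 CPM, the 6 fibroblast markers to 4.31 to 222 CPM and the 4 platelet and megakaryocyte markers to 48.8 to 265 CPM, and the summed 10 granulocyte markers ranged from 226 to 1271 CPM with overlapping ranges in the 6 groups. Libraries also differed in how their counts followed the GC content of genes. This was expressed as a GC slope, the log2 difference that a smooth curve over all genes gives between a gene of 55% and one of 40% GC, relative to the mean of the 18 libraries. The slope ranged from −1.08 to −0.76 in WT untreated libraries, from 0.08 to 1.60 in HDAC3 KO untreated libraries, from −0.44 to 0.57 in WT with NACs, from −0.68 to −0.42 in HDAC3 KO with NACs, from −0.88 to 0.59 in WT with ACs and from −0.31 to 1.39 in HDAC3 KO with ACs. The untreated groups did not overlap in it, nor did ACs and NACs in HDAC3 KO or untreated and NACs-treated libraries of either label, so that in these comparisons the group and the GC slope cannot be told apart by group means alone. The share of counts on mitochondrial genes also separated the genotype labels, at 0.496 to 0.621% in WT and 0.272 to 0.434% in HDAC3 KO untreated, 0.294 to 0.404% and 0.409 to 0.577% with NACs and 0.341 to 0.4797% and 0.493 to 1.19% with ACs. Over the 18 libraries its Pearson's r with log2 CPM was 0.63 for Lrp1, 0.56 for Scarb2 and between −0.28 and 0.38 for the other 7 receptors, and its part in the differences below was not tested.

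The receptors spanned a wide range of levels. Per kilobase of exon, the median over the 18 libraries was 1855 CPM per kb for Cd68, 63.8 for Cd36, 46.0 for Stab1, 20.9 for Scarb2, 12.9 for Lrp1, 10.1 for Msr1, 6.78 for Scarb1, 0.993 for Marco and 0.300 for Olr1. Cd68 was the highest of the 9 in 18 of 18 libraries and Olr1 the lowest in 15 of 18, the other 3 having Marco lowest. Between neighbours in this order, Stab1 exceeded Scarb2 in 18 libraries, and Scarb2 exceeded Lrp1 and Scarb1 exceeded Marco in 17. The order of Cd36 and Stab1, held in 13 libraries, that of Lrp1 and Msr1, held in 11, and that of Msr1 and Scarb1, held in 13, lay within the spread between libraries. The ratio of the highest to the lowest library was 39.9 for Marco, 8.73 for Msr1, 7.88 for Olr1, 7.51 for Cd36, 5.30 for Scarb1, 5.21 for Cd68, 3.85 for Lrp1, 3.72 for Scarb2 and 3.46 for Stab1. Marco rested on 2 to 242 counts in a library and Olr1 on 1 to 47, so that their levels carry the largest counting error of the group.

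**Figure D1:**
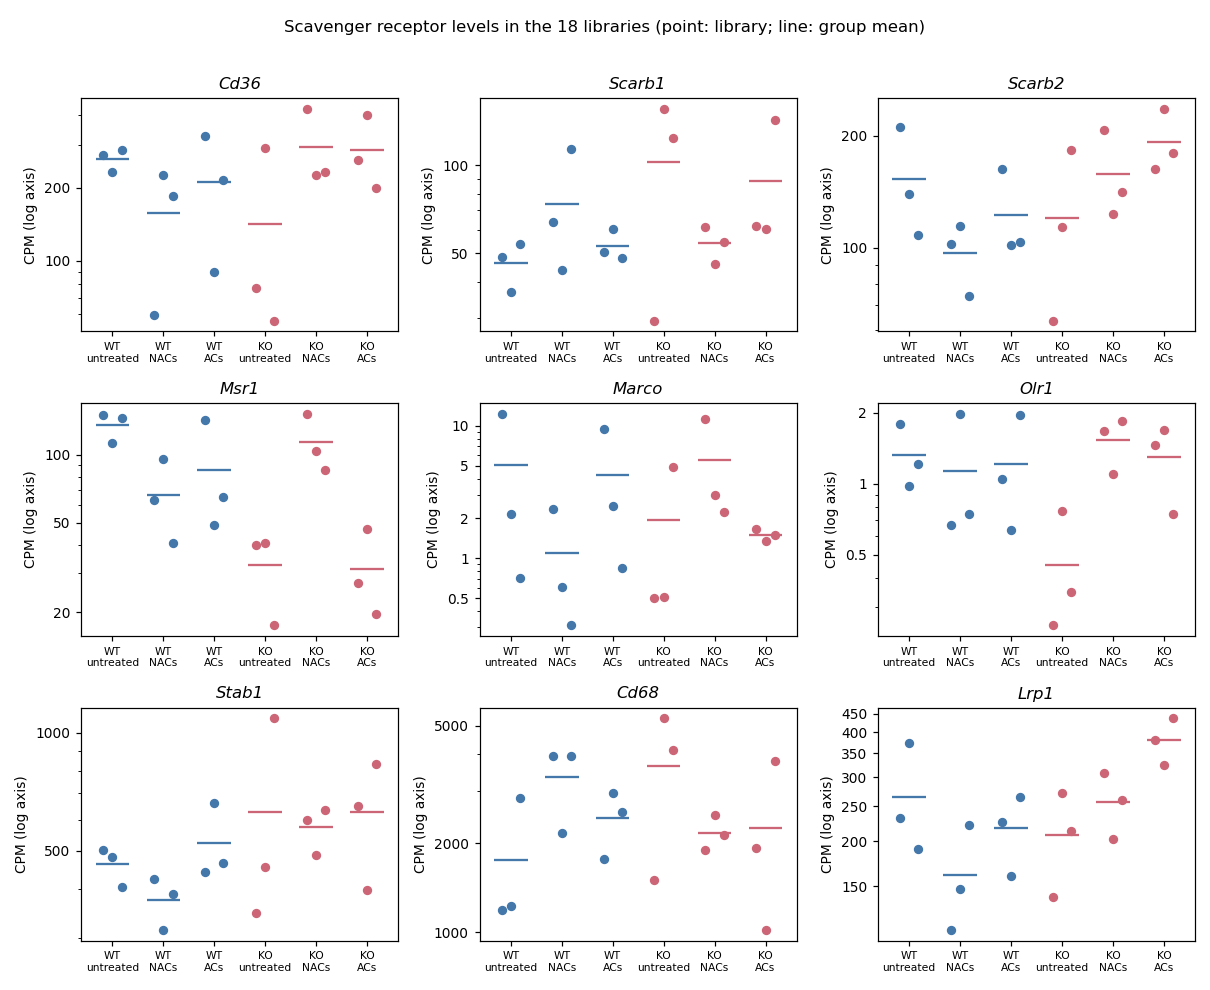
Level of each receptor in CPM on a log axis, with 1 point for each of the 18 libraries, 1 column for each group of 3 and a line at the group mean. Msr1 lies between 17.5 and 46.7 CPM in the untreated and ACs-treated libraries labelled HDAC3 KO, while Marco and Cd36 spread widely within most groups.

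Among the class B receptors, Cd36 (ENSMUSG00000002944; chromosome 5, 17781690 to 17888801) encodes the fatty acid translocase that also binds oxidized lipoprotein and oxidized phospholipid on apoptotic cells. With ACs it had 327, 90.1 and 216 CPM in replicates 1 to 3 labelled WT and 262, 401 and 199 CPM in those labelled HDAC3 KO. The groups overlapped. With NACs it had 59.9, 227 and 186 CPM under WT and 425, 226 and 233 CPM under HDAC3 KO, where 1 WT library stood just above the lowest HDAC3 KO library. In untreated macrophages it had 273, 232 and 288 CPM under WT, a narrow range, against 77.4, 293 and 56.6 CPM under HDAC3 KO. There, 1 HDAC3 KO library exceeded all WT libraries and the other two lay far below them.

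Scarb1 (ENSMUSG00000037936; chromosome 5, 125277087 to 125341094), known as SR-BI, exchanges cholesterol with high-density lipoprotein. Its group means were 46.3 ± 8.74, 73.8 ± 35.8 and 53.0 ± 6.65 CPM (SD, n = 3 each) in WT untreated, with NACs and with ACs, and 103 ± 65.7, 54.1 ± 7.86 and 88.4 ± 47.1 CPM in HDAC3 KO. In untreated HDAC3 KO libraries it had 29.4, 156 and 124 CPM. In 2 other groups the large SD came from single libraries: 143 CPM in ACs-treated HDAC3 KO replicate 3, against 61.8 and 60.6 CPM in the others, and 114 CPM in NACs-treated WT replicate 3, against 63.9 and 43.9 CPM. Scarb2 (ENSMUSG00000029426; chromosome 5, 92441314 to 92506833) encodes LIMP-2, a lysosomal membrane protein that carries glucocerebrosidase to the lysosome. With NACs it had 103, 114 and 73.9 CPM under WT and 208, 124 and 141 CPM under HDAC3 KO. With ACs it had 163, 102 and 103 CPM under WT and 163, 236 and 179 CPM under HDAC3 KO. All HDAC3 KO libraries were above all WT libraries in both treatments, by a margin of less than 1 CPM between WT replicate 1 and HDAC3 KO replicate 1 with ACs.

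Msr1 (ENSMUSG00000025044; chromosome 8, 39581685 to 39642673) encodes the class A receptor SR-A, which binds acetylated and oxidized lipoprotein and takes part in the uptake of apoptotic cells. In untreated macrophages it had 150, 113 and 145 CPM under WT and 39.7, 40.6 and 17.5 CPM under HDAC3 KO. With NACs it had 63.0, 96.4 and 40.6 CPM under WT and 153, 104 and 85.8 CPM under HDAC3 KO. With ACs it had 143, 48.97 and 65.3 CPM under WT and 27.1, 46.7 and 19.6 CPM under HDAC3 KO. The HDAC3 KO libraries were all below the WT libraries untreated and with ACs, while with NACs the 2 groups overlapped and the 2 highest values were from HDAC3 KO libraries.

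Marco (ENSMUSG00000026390; chromosome 1, 120474538 to 120505024), a class A receptor with a collagen-like domain, binds bacteria and particles and is best known on alveolar and marginal zone macrophages. In WT libraries it had 12.4, 2.17 and 0.714 CPM untreated, 2.35, 0.610 and 0.311 CPM with NACs and 9.53, 2.49 and 0.843 CPM with ACs. In HDAC3 KO libraries it had 0.503, 0.510 and 4.87 CPM untreated, 11.3, 2.98 and 2.23 CPM with NACs and 1.65, 1.35 and 1.49 CPM with ACs. The highest library of a group exceeded the lowest by up to 17.4-fold, in WT untreated, and by only 1.23-fold in HDAC3 KO with ACs. Hdac3 stood at 3.38, 4.66 and 7.12 CPM in WT untreated replicate 1, HDAC3 KO replicate 1 with NACs and WT replicate 1 with ACs, and these 3 libraries had the highest Marco and the lowest Hdac3 of the 18; whether the 2 are related was not tested.

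Olr1 (ENSMUSG00000030162; chromosome 6, 129485244 to 129507165) encodes LOX-1, a lectin-like receptor for oxidized lipoprotein that is most abundant in endothelium. It was near the limit of detection, with 0.251, 0.766 and 0.348 CPM in untreated HDAC3 KO libraries and 0.639 to 1.98 CPM in the other 5 groups. Only 1, 15 and 7 counts lay behind the untreated HDAC3 KO values. Stab1 (ENSMUSG00000042286; chromosome 14, 31139013 to 31168641) encodes stabilin-1, a receptor of alternatively activated macrophages and sinusoidal endothelium that takes up SPARC and acetylated lipoprotein and binds phosphatidylserine on dying cells. With NACs it had 424, 314 and 388 CPM under WT and 600, 488 and 636 CPM under HDAC3 KO, without overlap. With ACs it had 442, 664 and 465 CPM under WT and 650, 397 and 831 CPM under HDAC3 KO, with overlap, and its highest value, 1088 CPM, was in untreated HDAC3 KO replicate 3. The exons of Stab1 share 109 bases with those of Nt5dc2 on the other strand, and the strand setting of the counting was not given in the sources used here.

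Cd68 (ENSMUSG00000018774; chromosome 11, 69664213 to 69666153) encodes macrosialin, a glycoprotein of late endosomes and lysosomes that serves as a macrophage marker. It ranged from 1018 CPM in ACs-treated HDAC3 KO replicate 2 to 5303 CPM in untreated HDAC3 KO replicate 2. Its group means were 1757 ± 949, 3350 ± 1023 and 2433 ± 601 CPM in WT untreated, with NACs and with ACs, and 3652 ± 1950, 2173 ± 303 and 2255 ± 1425 CPM in HDAC3 KO (SD, n = 3 each). Lrp1 (ENSMUSG00000040249; chromosome 10, 127538161 to 127621148) encodes a large endocytic receptor of the low-density lipoprotein receptor family, which binds calreticulin on apoptotic cells. With ACs it had 226, 161 and 265 CPM under WT and 380, 324 and 437 CPM under HDAC3 KO, without overlap. With NACs it had 114, 147 and 222 CPM under WT and 309, 203 and 260 CPM under HDAC3 KO, and untreated 232, 374 and 191 CPM under WT and 140, 272 and 213 CPM under HDAC3 KO, with overlap in both.

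Promoter windows of RefSeq on GRCm38.p6, from 250 bases before to 50 bases after the start of the gene, were held for 7 of the 9 receptors. They were searched on both strands for the PU.1 core GAGGAA, the nuclear receptor half-site AGGTCA, the direct repeat of that half-site with 1 base between, known as DR1 and bound by PPAR with RXR, and the AP-1 site TGANTCA. Among all 32817 windows, 28.3% held the first, 16.3% the second, 0.0396% the third and 7.81% the fourth. The windows of Marco, whose level differed between ACs and NACs in HDAC3 KO libraries, of Cd68, the most abundant receptor, and of Cd36, a receptor that the study followed up, are shown on the reverse strand from 5′ to 3′, with matches in capitals.
Marco, chr1:120504975-120505274: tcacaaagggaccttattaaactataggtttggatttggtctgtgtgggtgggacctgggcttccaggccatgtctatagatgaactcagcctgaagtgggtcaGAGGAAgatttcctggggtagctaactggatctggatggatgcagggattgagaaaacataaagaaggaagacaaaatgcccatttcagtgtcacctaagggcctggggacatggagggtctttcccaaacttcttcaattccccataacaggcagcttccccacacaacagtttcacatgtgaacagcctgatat
Cd68, chr11:69666121-69666420: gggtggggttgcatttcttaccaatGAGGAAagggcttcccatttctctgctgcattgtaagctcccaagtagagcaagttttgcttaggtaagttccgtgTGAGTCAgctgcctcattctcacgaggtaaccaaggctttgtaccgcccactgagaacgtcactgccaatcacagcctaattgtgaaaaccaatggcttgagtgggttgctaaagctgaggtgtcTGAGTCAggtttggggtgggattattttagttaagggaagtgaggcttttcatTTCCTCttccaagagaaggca
Cd36, chr5:17835847-17836146: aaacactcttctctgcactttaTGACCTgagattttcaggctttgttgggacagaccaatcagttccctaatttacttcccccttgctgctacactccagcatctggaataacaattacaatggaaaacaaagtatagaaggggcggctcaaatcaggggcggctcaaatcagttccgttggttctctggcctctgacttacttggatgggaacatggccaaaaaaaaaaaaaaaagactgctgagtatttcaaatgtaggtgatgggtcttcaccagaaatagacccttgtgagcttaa
The Marco window held 1 PU.1 core, 146 bases before the start. That of Cd68 held PU.1 cores 225 bases before and 29 bases after the start and AP-1 sites 149 and 24 bases before it, and that of Cd36 held 1 half-site, read from the other strand as TGACCT, 228 bases before the start. The Cd36 start used by RefSeq lies 52905 bases inside the gene as counted, and this gene is known to have several promoters. Olr1 held a match to 3 of the motifs and Stab1 1 PU.1 core, while the windows of Scarb2 and Lrp1 held none of these letters. Such matches are descriptions of sequence and not sites of binding.

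With ACs, the comparison asks which receptors differ between the genotypes while apoptotic cells are being cleared, and none of the 9 passed the test. Lrp1, Scarb1 and Scarb2 were higher in all 3 libraries labelled HDAC3 KO than in the WT libraries, and Msr1 was lower in all 3. For Scarb1 the margin was narrow, with 60.54 CPM in the highest WT library and 60.57 CPM in the lowest HDAC3 KO library. The log2 fold change was −1.49 for Msr1 (SE 0.477, unadjusted p = 0.00562, adjusted p = 0.0775 by the quasi-likelihood test of edgeR, adjusted over all genes tested by the Benjamini-Hochberg method, hereafter the edgeR adjusted p), or 0.356 times the WT level. Marco had a log2 fold change of −1.56 (SE 0.704, edgeR adjusted p = 0.183), with overlapping groups. Among the lipid and lysosomal receptors, Lrp1 was at 0.76 (SE 0.389, edgeR adjusted p = 0.239), Scarb1 at 0.67 (0.334), Scarb2 at 0.61 (0.355) and Cd36 at 0.42 (SE 0.468, edgeR adjusted p = 0.603). Stab1, Olr1 and Cd68 had log2 fold changes of 0.19, 0.08 and −0.19 with edgeR adjusted p values of 0.808 or more. In RNA from a whole culture, fewer cells of a kind and less RNA per cell cannot be told apart.

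Of 12304 genes tested with ACs, 3.75% had an adjusted p under 0.05, against 0 of the 9 receptors. An unadjusted p under 0.05 was reached by 2 receptors, Msr1 and Marco, and by 24.3% of all genes, a share near that of the receptors. DESeq2's Wald test passed 1, Msr1 (adjusted p = 0.0344), beside 1373 genes called of 12304. The 2 groups did not overlap for 4 receptors, beside 28.3% of all genes, and the exact permutation test gave each of the 4 its smallest possible two-sided p of 0.1. Correction of each library for GC content and exon length by an offset changed the calls: with it Cd36 rose by 1.29 on the log2 scale (edgeR adjusted p = 0.0203), beside 1194 genes called of 12282, and Msr1 was at −0.80 (edgeR adjusted p = 0.114). Msr1 passed without WT replicate 2 (−1.75, edgeR adjusted p = 0.0250), beside 514 genes called of 12968. It also passed without HDAC3 KO replicate 2 (−1.90, edgeR adjusted p = 0.0167), beside 1693 genes called of 12697. Without WT replicate 1 the log2 fold change of Msr1 was −0.88 and that of Marco −0.22. The summed level of the 8 macrophage markers also did not overlap, at 8521 to 11369 CPM under WT and 14794 to 17297 CPM under HDAC3 KO. That sum includes Lyz2, the locus that drives Cre, at 3025 to 5387 CPM under WT and 4060 to 10463 CPM under HDAC3 KO. Library totals did not overlap either, at 9385094 to 14929827 and 18495507 to 22664522 counts. The part of the marker sum or of the library totals in these values was not tested.

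**Figure D2:**
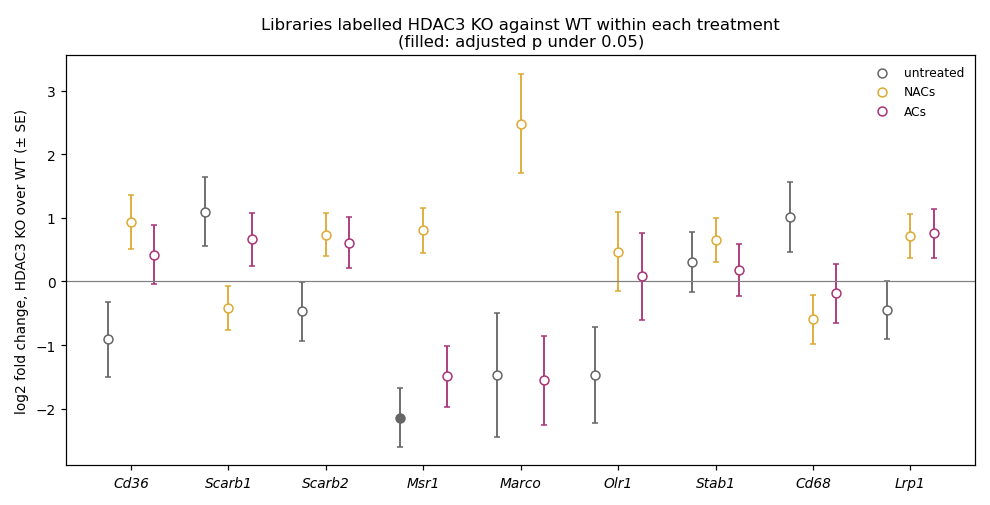
Log2 fold change of each receptor in libraries labelled HDAC3 KO over WT, with bars of 1 SE and 3 libraries a group, for untreated, NACs-treated and ACs-treated macrophages; a filled point has an adjusted p under 0.05. Msr1 lies at −2.14 untreated, 0.81 with NACs and −1.49 with ACs, and Marco at −1.47, 2.48 and −1.56.

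With NACs, the same comparison serves as the control for contact with cells that are not dying, and 7 of the 9 receptors had a fitted value above 0, though none passed the test. Marco had the largest difference, a log2 fold change of 2.48 (SE 0.780, unadjusted p = 0.00711, edgeR adjusted p = 0.115). Cd36 followed at 0.93 (SE 0.423, edgeR adjusted p = 0.191), Msr1 at 0.81 (SE 0.354, edgeR adjusted p = 0.175), Scarb2 at 0.74, Lrp1 at 0.71 and Stab1 at 0.65. Cd68 and Scarb1 were at −0.60 and −0.41. The share of all genes with an adjusted p under 0.05 was 0.864%. An unadjusted p under 0.05 was found for 5 of the 9 receptors and for 24.2% of all genes. Scarb2 and Stab1 did not overlap between the groups, beside 27% of all genes. DESeq2's Wald test passed Marco (adjusted p = 0.0358), whose WT libraries rested on 5 to 21 counts, beside 441 genes called of 11923. Without WT replicate 2, Msr1 (1.28, edgeR adjusted p = 0.0150) and Scarb2 (0.98, edgeR adjusted p = 0.0370) passed, beside 3121 genes called of 12663. Without HDAC3 KO replicate 3 Marco passed (2.86, edgeR adjusted p = 0.00101), beside 169 genes called of 11972. Without HDAC3 KO replicate 1, which held 242 counts of Marco, Marco was at 1.34 (edgeR adjusted p = 0.450), and without any other 1 library it missed the threshold at 2.05 to 3.66. With the GC and length offset, which left 1 gene called of 11905, Msr1 was at 0.33, Scarb2 at 0.23, Cd36 at 0.58, Lrp1 at 1.14, Stab1 at 0.99 and Marco at 2.96, and none passed.

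In untreated macrophages, the question was which receptors differ before any contact with cells, and Msr1 was the 1 receptor that passed. It fell by 2.14 on the log2 scale in libraries labelled HDAC3 KO (SE 0.456, edgeR adjusted p = 0.0228), from 136 ± 20.1 CPM to 32.6 ± 13.1 CPM (SD, n = 3 each), with 3 of 3 HDAC3 KO libraries below all WT libraries. Olr1 was also without overlap, at −1.47 (SE 0.753, edgeR adjusted p = 0.168), on counts of 1 to 27. Marco at −1.47, Cd36 at −0.91, Scarb2 at −0.47 and Lrp1 at −0.45 had fitted values below 0, and Scarb1 at 1.09, Cd68 at 1.02 and Stab1 at 0.31 above 0, with edgeR adjusted p values from 0.155 to 0.644. The share of all genes called was 11.6%, and 40.9% of all genes did not overlap between these groups. An unadjusted p under 0.05 was found for 1 of the 9 receptors and for 37.2% of all genes. With the same offset, no gene was called (2235 of 12080 had an unadjusted p under 0.05), and Msr1 was at −0.97 (edgeR adjusted p = 0.177). Msr1 also missed the threshold without any 1 of the WT libraries or without HDAC3 KO replicate 3 (edgeR adjusted p from 0.0650 to 0.0872). Scarb1 (1.44, edgeR adjusted p = 0.00101) and Cd68 (1.31, edgeR adjusted p = 0.00640) passed without HDAC3 KO replicate 1, the shallowest library. In that fit 5887 of 12714 genes were called. Without WT replicate 1 Marco was at 0.30. The 6 B cell markers summed to 2.52 to 5.16 CPM under WT and to 6.21 to 15.1 CPM under HDAC3 KO, and their part in these values was not tested.

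Over the 3 treatments together, with treatment as a covariate, no receptor passed the test between the genotype labels. The log2 fold change of Msr1 was −0.96 (SE 0.392, unadjusted p = 0.0220, edgeR adjusted p = 0.299; two-sided exact permutation test within treatments, p = 0.0518), and the others lay between −0.29 for Marco and 0.49 for Scarb1. Msr1 was the 1 receptor with an unadjusted p under 0.05, beside 13.5% of all genes, and 0% of all genes had an adjusted p under 0.05 by edgeR or by DESeq2's Wald test.

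ACs were then compared with NACs within each genotype label, which sets the response to dying cells against that to cells that are not dying. In the libraries labelled HDAC3 KO, both class A receptors were lower with ACs. Msr1 fell by 1.85 on the log2 scale (SE 0.409, edgeR adjusted p = 0.00720), from 114 ± 34.6 to 31.1 ± 14.0 CPM, and Marco fell by 1.88 (SE 0.558, edgeR adjusted p = 0.0382), from 5.49 ± 5.01 to 1.49 ± 0.154 CPM (SD, n = 3 each). In both, all 3 ACs libraries were below all 3 NACs libraries. Lrp1 also did not overlap, in the other direction, at 0.57 (SE 0.372, edgeR adjusted p = 0.343), and Scarb1 was at 0.71, Scarb2 at 0.31 and Cd36 at −0.02. These 2 calls among 9 receptors stand beside 7.38% of all genes called, the same 2 alone had an unadjusted p under 0.05, beside 25.3% of all genes, and the 3 receptors without overlap beside 29.4% of all genes.

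**Figure D3:**
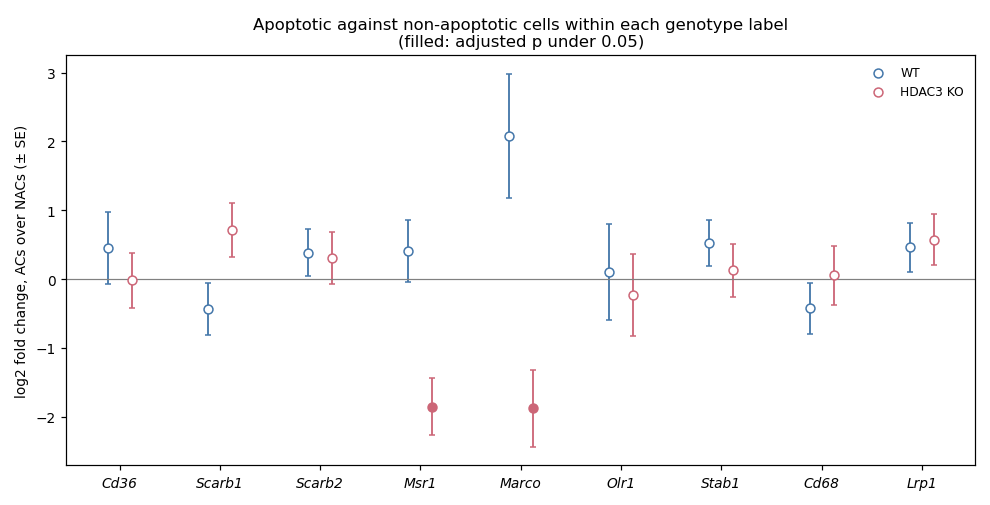
Log2 fold change of each receptor with ACs over NACs, in libraries labelled WT and HDAC3 KO, with bars of 1 SE and 3 libraries a group; a filled point has an adjusted p under 0.05. Msr1 and Marco lie at −1.85 and −1.88 in HDAC3 KO and at 0.40 and 2.08 in WT.

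Both calls depended on single libraries. Msr1 missed the threshold without ACs-treated HDAC3 KO replicate 1 (−1.76, edgeR adjusted p = 0.152) or replicate 3 (−1.59, edgeR adjusted p = 0.0535). Marco missed it without either of these (−1.97 and −1.85, edgeR adjusted p of 0.216 and 0.141) and without NACs-treated HDAC3 KO replicate 1, its highest library (−0.76, edgeR adjusted p = 0.569). Marco also missed it with replicate number as a block (−1.51, edgeR adjusted p = 0.0563) and with all 18 libraries in 1 fit (−1.88, edgeR adjusted p = 0.351). With the GC and length offset, Msr1 was at −0.996 (edgeR adjusted p = 0.0601) and Marco at −2.09 (edgeR adjusted p = 0.0676), and neither passed, while Lrp1 was at 0.06 and Cd36 at 0.99 (edgeR adjusted p of 0.926 and 0.0688). With the offset and the block together, Msr1 (−0.96), Marco (−1.70) and Cd36 (1.05) passed, with edgeR adjusted p values from 0.0330 to 0.0415, beside 1054 genes called of 12225. The GC slopes of the 2 groups do not overlap. Markers of other cells moved with this comparison: the 6 fibroblast markers summed to 7.22 to 42.7 CPM with NACs and 75.6 to 222 CPM with ACs, and the 8 endothelial markers, with Lyve1 at 3 counts or fewer, to 11.9 to 17.2 and 18.7 to 52.7 CPM. Their part in the differences of the receptors was not tested.

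In the libraries labelled WT, no receptor passed the test between ACs and NACs by edgeR or by DESeq2's Wald test. Marco was at 2.08 on the log2 scale (SE 0.898, unadjusted p = 0.0372, edgeR adjusted p = 0.898), the 1 receptor with an unadjusted p under 0.05, and its groups overlapped. Msr1 was at 0.40, Cd36 at 0.45, Lrp1 at 0.46 and Scarb1 at −0.44, with edgeR adjusted p values from 0.898 to 0.902. Stab1 alone did not overlap, at 0.52 (SE 0.335), beside 10.4% of all genes. Across all 11844 genes, 0% were called by edgeR and 0 genes by DESeq2, and 493 genes or 4.16% had an unadjusted p under 0.05. The difference between the 2 responses was tested by adding the product of genotype label and kind of cells to the model, an interaction. It was −3.91 for Marco (SE 1.18, edgeR adjusted p = 0.0980), −2.24 for Msr1 (SE 0.624, edgeR adjusted p = 0.0732) and 1.18 for Scarb1 (SE 0.557, edgeR adjusted p = 0.241), so none of the 9 passed, beside 0.0765% of all genes. These 3 had unadjusted p values under 0.05, beside 20% of all genes. DESeq2's Wald test passed Marco (adjusted p = 0.0161) and Msr1 (adjusted p = 0.0185), beside 759 genes called of 13076. Msr1 passed by edgeR without replicate 2 of WT with NACs (−2.81), of WT with ACs (−2.66) or of HDAC3 KO with ACs (−2.65). Genes called in those fits were 782 of 13884, 228 of 13940 and 826 of 13450. With the offset Msr1 was at −1.19 (edgeR adjusted p = 0.149).

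Against untreated macrophages, ACs gave no call in either genotype label, with 0% of all genes called in each by edgeR and 0 and 5 genes in WT and HDAC3 KO by DESeq2's Wald test, beside 1551 and 1761 genes with an unadjusted p under 0.05. In WT the receptors lay between −0.72 for Msr1 and 0.41 for Cd68, and no receptor had an unadjusted p under 0.05 or passed DESeq2's Wald test. None was without overlap, beside 15.5% of all genes. In HDAC3 KO, Olr1 was at 1.55 (SE 0.790), Cd36 at 1.15 (SE 0.589), Lrp1 at 0.997 (SE 0.454) and Scarb2 at 0.83 (SE 0.480), with edgeR adjusted p values from 0.329 to 0.410. Lrp1 alone had an unadjusted p under 0.05 (0.0397) and alone did not overlap, beside 21.5% of all genes, and DESeq2's Wald test passed none of the 9. The untreated libraries are shared with the comparisons of genotype above.

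NACs against untreated gave opposite directions for Msr1 under the 2 genotype labels. In WT, Msr1 had a log2 fold change of −1.09 (SE 0.387, edgeR adjusted p = 0.0565), with all 3 NACs libraries below the untreated ones, and in HDAC3 KO it rose by 1.98 (SE 0.437, edgeR adjusted p = 0.0383), with all 3 above. In WT, Msr1 was at −0.35 (edgeR adjusted p = 0.561) with the GC and length offset. In WT, Cd36 at −0.80 (SE 0.409) was the other receptor without overlap, Msr1 and Lrp1 (−0.81) had unadjusted p values under 0.05, beside 33.2% of all genes, and no receptor passed, beside 8.52% of all genes called and 29.7% without overlap. DESeq2's Wald test passed Msr1 in WT (adjusted p = 0.0497), beside 1484 genes called of 11912. Without NACs-treated WT replicate 2, Msr1 (−1.42, edgeR adjusted p = 0.00668), Cd36 (−1.12, edgeR adjusted p = 0.0454) and Scarb1 (0.92, edgeR adjusted p = 0.0382) passed, beside 4232 genes called of 12383. In HDAC3 KO, Olr1 was at 1.83 (SE 0.659, edgeR adjusted p = 0.104), also without overlap, and the 1 call among 9 receptors stands beside 6.54% of all genes called and 38.7% without overlap. An unadjusted p under 0.05 was found for 2 of the 9 there and for 30.4% of all genes. Msr1 in HDAC3 KO passed without untreated replicate 1 and missed the threshold without any other 1 library (edgeR adjusted p from 0.0882 to 0.224), with DESeq2 size factors (1.77, edgeR adjusted p = 0.0648) and with the block (2.03, edgeR adjusted p = 0.0883). Scarb1 (−1.24, edgeR adjusted p = 0.00780) and Cd68 (−0.995, edgeR adjusted p = 0.0269) passed there without untreated replicate 1, beside 4441 genes called of 12493. Marco in WT passed without untreated replicate 3 (−2.92, edgeR adjusted p = 0.0332), beside 1342 genes called of 12327. The GC slopes of untreated and NACs-treated libraries do not overlap in either label, and for Msr1 in HDAC3 KO, with the GC and length offset, the value was 0.90 (edgeR adjusted p = 0.235). Markers of other cells separated the untreated from the NACs-treated HDAC3 KO libraries: the 6 fibroblast markers summed to 67.5 to 102 CPM untreated and 7.22 to 42.7 CPM with NACs, the 6 B cell markers to 6.21 to 15.1 and 1.82 to 5.27 CPM, and the 4 platelet and megakaryocyte markers to 73.4 to 126 and 133 to 242 CPM. In WT the B cell markers did so, at 2.52 to 5.16 CPM untreated and 5.26 to 19.5 CPM with NACs. Their part in the differences of the receptors was not tested.

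The difference between these responses to NACs was tested as a second interaction, added after the values of Msr1 had been seen. It was 3.19 for Msr1 (SE 0.580, edgeR adjusted p = 9.59e-04), 2.15 for Cd36 (SE 0.7997, edgeR adjusted p = 0.0459) and 1.43 for Lrp1 (SE 0.554, edgeR adjusted p = 0.0487), and Scarb2 was at 1.44 (SE 0.575, edgeR adjusted p = 0.0545). These 3 calls among 9 receptors stand beside 34.8% of all genes, a share near their own, and 7 of the 9 had an unadjusted p under 0.05, beside 47.4% of all genes. The GC slopes of the 4 groups differ in the same crossed way, at medians of −1.04 and 0.96 in untreated WT and HDAC3 KO libraries and 0.41 and −0.53 with NACs. With the offset Msr1 was at 1.40 (edgeR adjusted p = 0.0630) and Cd36 at 0.43 (edgeR adjusted p = 0.731), while Lrp1 was at 2.43 (edgeR adjusted p = 0.0130), beside 1548 genes called of 12979. Msr1 passed without any 1 library (2.62 to 3.59), while Cd36 did so only without NACs-treated WT replicate 2 or untreated HDAC3 KO replicate 2 and Lrp1 only without untreated WT replicate 3. Cd68 (−1.74) and Scarb1 (−1.64) passed by DESeq2's Wald test, beside 5639 genes called of 13005. Cd68 also passed with DESeq2 size factors, beside 5010 of 13005, and without a filter, beside 4271 of 28195. Receptors that passed with 1 library left out were Scarb1 and Cd68 without untreated HDAC3 KO replicate 1, Scarb2 and Marco without untreated HDAC3 KO replicate 3, Scarb2, Marco and Cd68 without untreated WT replicate 3 and Olr1 without NACs-treated WT replicate 2. With 1 library left out, 3043 to 6297 of all genes were called in this interaction.

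The receptors differ in GC content, and their levels followed the GC slope of the libraries to different degrees. The GC content of a gene is that of its longest annotated transcript. Msr1 and Cd36 have 38.4% GC each, less than all but 2.87% and 2.90% of the genes kept, Olr1 41.2%, Scarb2 46.3%, Scarb1 48.5%, Cd68 52.9%, Marco 54.5%, Stab1 57.3% and Lrp1 57.9%, beside a median of 49.8%. Over the 18 libraries, which share these groups and depths, Pearson's r between log2 CPM and GC slope was −0.93 for Msr1, −0.59 for Olr1 and −0.56 for Cd36. It was 0.75 for Scarb1, 0.72 for Cd68, 0.54 for Stab1, −0.12 for Scarb2, 0.03 for Lrp1 and −0.29 for Marco. On deviations from the group means, r was −0.85 for Msr1, 0.84 for Cd68 and 0.83 for Stab1. Lrp1, whose counted exons of 17717 bases are the longest of the 9, had an r of 0.80 with the length slope, the like difference between genes of 6000 and 2000 bases, and with the offset its log2 fold change with ACs stayed at 0.76 (edgeR adjusted p = 0.185). For ACs over NACs in HDAC3 KO it went from 0.57 to 0.06 with the offset and in the interaction with ACs or NACs from 0.13 to −0.44.

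**Figure D4:**
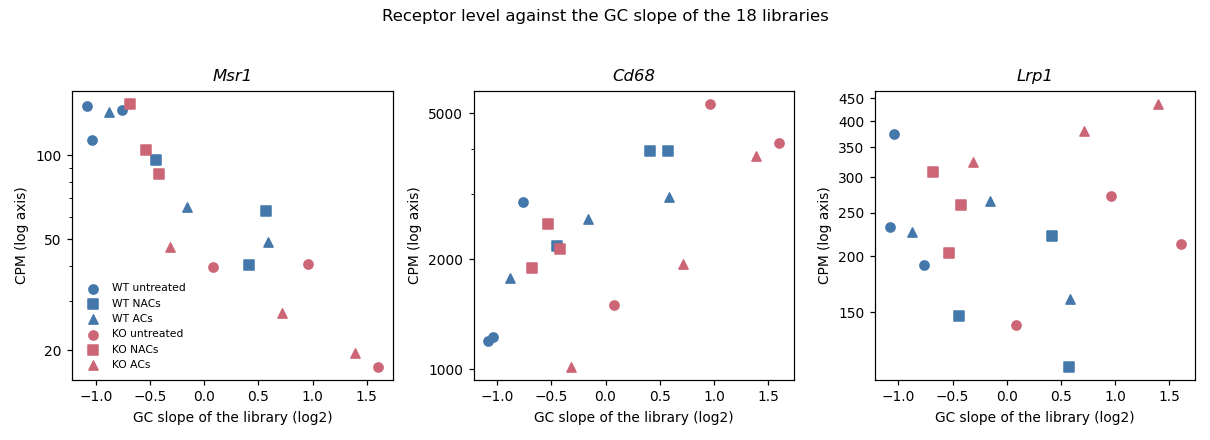
Level of Msr1, Cd68 and Lrp1 in CPM on a log axis against the GC slope of each of the 18 libraries, with color for the genotype label and marker shape for the treatment. Msr1 falls as the slope rises (r = −0.93), Cd68 rises with it (r = 0.72), and Lrp1 shows no such relation (r = 0.03).

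**Figure D5:**
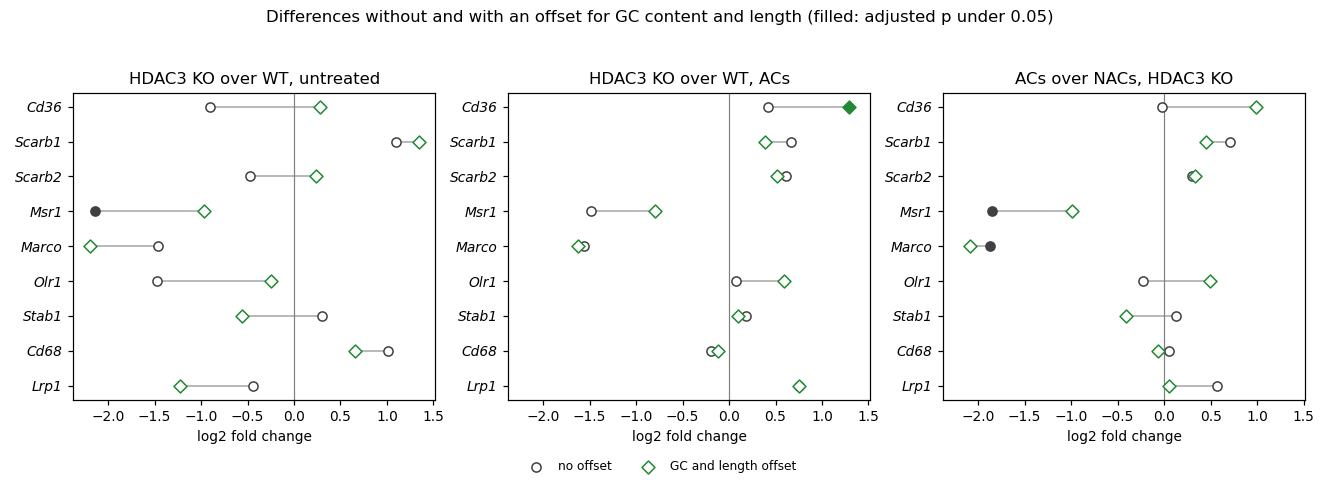
Log2 fold changes of the 9 receptors without (circles) and with (diamonds) the offset for GC content and exon length in 3 comparisons of 3 libraries against 3; a filled symbol has an adjusted p under 0.05. Msr1 moves from −2.14 to −0.97 untreated and from −1.49 to −0.80 with ACs, and Cd36 from 0.42 to 1.29 with ACs.

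Pairs of receptors varied together to different degrees over the 18 libraries. Cd36 and Olr1 had the highest r between 2 receptors, 0.77, followed by Scarb1 and Cd68 at 0.74, Scarb2 and Marco at 0.69 and Cd36 and Lrp1 at 0.61. The most opposed were Msr1 and Scarb1, at −0.61. On deviations from the group means the first 3 stood at 0.69, 0.81 and 0.80. Cd36 and Lrp1 were then at 0.48 and Msr1 and Scarb1 at −0.44, and the most opposed pair was Msr1 and Stab1, at −0.75. These deviations also followed the GC slope, with r of 0.69 for Scarb1, 0.84 for Cd68, 0.83 for Stab1 and −0.85 for Msr1. It was −0.55 for Cd36, −0.43 for Olr1, −0.04 for Scarb2, 0.05 for Marco and 0.12 for Lrp1. The part of the slope in the pairs was not tested. Genes among the 3 most like each receptor by r of log2 CPM over the 18 libraries, out of about 6780 genes with a mean of at least 10 CPM, were Pnrc2, Rnf13 and Selenof for Msr1 (r of 0.98, 0.98 and 0.97), and Rin2, Anxa3 and Adss for Cd36 (0.93, 0.93 and 0.90). Scarb1 was closest to Gpnmb (0.95), a lysosomal glycoprotein, then to Gabarapl1 and Dym, and Scarb2 to Lamp1 (0.95), an abundant lysosomal membrane protein, then to Tor1aip2 and Pla2g7. Marco was closest to Acod1 (0.84), the enzyme that makes itaconate, then to Clec4n and Rsad2, Stab1 to C3 (0.94), the central complement component, then to Rcsd1, and Lrp1 to Fos (0.89), then to Vps13d and Fbxl20. Dpagt1 and Capns1 were among the 3 genes closest to Cd68 (0.97 and 0.96), and Olr1 was closest to Fip1l1, Ddx5 and Rraga (0.89, 0.88 and 0.88).

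Other scavenger receptors, 16 listed by name, were tested beside the 9. With ACs, 2 of the 12 tested passed, beside 3.75% of all genes: Clec7a, the beta-glucan receptor dectin-1, fell by 2.49 on the log2 scale in HDAC3 KO (SE 0.516, edgeR adjusted p = 0.0214), and Scarf1, an endocytic receptor that binds C1q on apoptotic cells, rose by 1.62 (SE 0.414, edgeR adjusted p = 0.0411). Clec7a had 1096 ± 820 CPM in WT and 201 ± 13.5 CPM in HDAC3 KO, and Scarf1 9.52 ± 1.41 and 30.6 ± 5.31 CPM (SD, n = 3 each). In untreated macrophages Stab2, the paralog of Stab1, rose by 2.48 (edgeR adjusted p = 0.0322) and Mrc1, the mannose receptor, fell by 1.505 (edgeR adjusted p = 0.0415), 2 of 11 tested, beside 11.6% of all genes. None passed with NACs, beside 0.864%. Between ACs and NACs in HDAC3 KO, Clec7a fell by 2.34 (SE 0.419, edgeR adjusted p = 0.00143) and Stab2 rose by 1.88 (SE 0.529, edgeR adjusted p = 0.0300), 2 of 13 tested, beside 7.38% of all genes. None of 12 passed in WT, beside 0%. The median log2 fold change of the list with ACs was 0.17, beside −0.01 over all genes. With the GC and length offset, Stab2 (2.09) and Mrc1 (−0.43) untreated and Clec7a (−1.34) and Stab2 (1.27) with ACs over NACs missed the threshold, while Clec7a (−1.55) and Scarf1 (1.92) with ACs passed. With the offset and the block, Clec7a with ACs over NACs also passed (−1.30, edgeR adjusted p = 0.0411). Scarf1 missed the threshold with replicate number as a block (1.63, edgeR adjusted p = 0.0666) and Mrc1 without a filter on low counts (−1.46, edgeR adjusted p = 0.0616).

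Of 14 genes that handle lipoprotein lipid after uptake, Abcg1, which exports cholesterol, rose by 1.65 in HDAC3 KO with ACs (SE 0.385, edgeR adjusted p = 0.0303) and by 1.41 with ACs over NACs in HDAC3 KO (SE 0.370, edgeR adjusted p = 0.0200), 1 of 14 beside 3.75% and 7.38% of all genes. Abca1, a second cholesterol exporter, rose by 1.52 in HDAC3 KO with NACs (SE 0.373, edgeR adjusted p = 0.0466), a call lost with the offset (1.11, edgeR adjusted p = 0.143) and with all 18 libraries in 1 fit, again 1 of 14, beside 0.864% of all genes. No other gene of this list passed in those comparisons or untreated, and its median with ACs was 0.77, beside −0.01 over all genes. Of 16 tested ligands, partners and signalling genes of the receptors, C1qc, a chain of the complement component C1q, rose by 1.48 in HDAC3 KO with ACs (SE 0.402, edgeR adjusted p = 0.0472), a call lost with the block (1.49, edgeR adjusted p = 0.102) and 1 of 16, beside 3.75% of all genes. Tlr4, a signalling partner of Cd36, rose by 1.63 with NACs (SE 0.385, edgeR adjusted p = 0.0443) and fell by 2.61 untreated (SE 0.4998, edgeR adjusted p = 0.0192), the 1 call of 16 in each, beside 0.864% and 11.6% of all genes. Neither call of Tlr4 passed with the offset (1.15 and −1.34, edgeR adjusted p of 0.140 and 0.155), nor did that with NACs in 1 fit of all 18 libraries (1.59, edgeR adjusted p = 0.258). With ACs over NACs in HDAC3 KO, 3 passed, beside 7.38% of all genes, all higher: Cd5l, a ligand of Cd36, at 1.75, Mfge8, a bridging protein for phosphatidylserine, at 1.60 and C1qc at 1.29, with edgeR adjusted p values from 0.0181 to 0.0382. With the offset C1qc passed (1.21), and Cd5l at 1.54 (edgeR adjusted p = 0.0635) and Mfge8 at 1.12 (edgeR adjusted p = 0.115) did not.

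Among 14 transcription factors known to act on the receptors, Nr1h3, which encodes liver X receptor alpha, fell by 1.71 in HDAC3 KO with ACs (SE 0.449, edgeR adjusted p = 0.0445), beside 3.75% of all genes, and none passed with NACs. Untreated, 4 passed: Cebpa (1.86), Ppard (1.47) and Rxra (1.49) were higher and Nfe2l2 (−1.52) was lower, with edgeR adjusted p values from 0.0261 to 0.0498. These 4 of 14 stand beside 11.6% of all genes called untreated, and none of the 4 passed with the offset, Cebpa alone passed with the block, and none of the 4 passed without any 1 WT library or without HDAC3 KO replicate 2 or 3. With ACs over NACs in HDAC3 KO, Klf4 rose by 1.58 and Cebpa by 1.31 (edgeR adjusted p of 0.0303 and 0.0341), beside 7.38% of all genes, and with the offset Cebpa passed and Klf4 did not. With all 18 libraries in 1 fit, Abcg1 alone of the 8 list calls between ACs and NACs in HDAC3 KO passed, and the others had edgeR adjusted p values from 0.0697 to 0.264. No gene of the 4 lists passed between ACs and NACs in WT or over all treatments. The calls of these lists also rested on single libraries: without HDAC3 KO replicate 1 with ACs, 0 of the 5 list calls between the genotype labels with ACs and 0 of the 8 between ACs and NACs in HDAC3 KO passed. Without WT replicate 1 or 3 or HDAC3 KO replicate 1 or 2, 0 of the 2 with NACs passed. Without any 1 WT library or HDAC3 KO replicate 3, 0 of the 7 untreated passed. With every library kept but no filter on low counts, 5 of these 7 passed.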

How the data were processed

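Gene counts of 18 bulk RNA-seq libraries were examined, 3 in each of 6 groups. The authors deposited unnormalized counts per gene, which per the submitters' processing notes came from Trimmomatic 0.36, STAR 2.5.2b and featureCounts of Subread 1.5.2 on GRCm38. The strand setting and whether reads or fragments were counted were not given in the sources used here. Reads from K562 RNA that matched the mouse genome cannot be told from macrophage reads.

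Totals ranged from 4704491 to 26421267 counts. Groups came from the labels. Levels are CPM scaled by TMM over the 18 libraries. Each comparison was fitted in R 4.3.3 with edgeR 4.0.16 (filterByExpr with a minimum count of 10 and minimum total of 15, TMM, robust quasi-likelihood test) on its own libraries, with Benjamini-Hochberg adjustment over all genes tested and a threshold of 0.05. The SE given with a log2 fold change is its absolute value divided by the square root of the F statistic of the quasi-likelihood test. The study's methods named DESeq2, which served here as an alternative (version 1.42.0). Two-sided exact permutation tests used log2(CPM + 1) and cannot give a p below 0.1 with 3 against 3. Correlations used log2 CPM with a prior count of 2. The GC and length offset was fitted in each library with mgcv 1.9.3, on the GC content of the longest annotated transcript and the length of the counted exons. The fits were tested on simulated data. Other alternatives were DESeq2 size factors, no filter, a minimum of 10 counts in all libraries, a joint fit of all 18, replicate number as a block, and each library left out. The interaction with NACs or no treatment was chosen after seeing the data. The alternatives were also run on the genes of the other lists called between the genotype labels or between ACs and NACs, a choice made after seeing the data.

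The members and gene lists were chosen with earlier results of these data known. Named were the 9 receptors, Hdac3, marker genes used as checks, for each receptor the 3 most correlated genes with a mean of at least 10 CPM, and from each list at most 3 genes by smallest p in the genotype and ACs against NACs comparisons; Rxra, the fourth factor called in untreated macrophages, was named after its value was seen. A few genes that the rule names are not reported here.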

Additional observations from a re-analysis of the deposited data

Results flagged for a closer look

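The difference between the genotype labels in the change from untreated macrophages to NACs passed the test for 3 of the 9 receptors, by the interaction in edgeR's quasi-likelihood test that was added after the data were seen. Of all genes, 34.8% passed it, a share near that of the receptors. The interaction was 3.19 on the log2 scale for Msr1, 2.15 for Cd36 and 1.43 for Lrp1. For Msr1 the change was −1.09 in the libraries labelled WT and 1.98 in those labelled HDAC3 KO, with 3 of 3 NACs-treated libraries below the untreated ones in WT and 3 of 3 above in HDAC3 KO. With the GC and length offset these were −0.35 (edgeR adjusted p = 0.561) and 0.90 (edgeR adjusted p = 0.235). With the GC and length offset the interaction was 1.40 for Msr1 (edgeR adjusted p = 0.0630) and 0.43 for Cd36 (edgeR adjusted p = 0.731), so that neither passed, and 2.43 for Lrp1 (edgeR adjusted p = 0.0130), beside 1548 genes called of 12979. Without the offset and with 1 library left out, Lrp1 ranged from 0.74 to 1.67 (edgeR adjusted p from 0.0272 to 0.347). It then passed only without untreated WT replicate 3. With 3 libraries in a group, no single library was tested for standing apart from its group.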

How the results depend on the processing

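Over the 12 comparisons, under alternatives that kept every library, 730 fitted values of the receptors kept their direction and their side of the threshold, 23 lost a call, 22 gained a call and 52 turned in direction. With 1 library left out these were 744, 35, 24 and 61. No called gene of the other lists turned. The number of receptors called with ACs between the genotype labels went from 0 to 1 with DESeq2's Wald test, with at least 10 counts in every library and with the GC and length offset, alone or with the replicate block. With NACs it went from 0 to 1 with DESeq2, without a filter and with the block, and untreated from 1 to 0 with the offset, alone or with the block. For ACs against NACs in HDAC3 KO it went from 2 to 1 with all libraries in 1 fit or with the block to 0 with the offset and to 3 with the offset and block, where Cd36 turned and passed. For NACs against untreated it went in WT from 0 to 1 (DESeq2, no filter, at least 10 counts) or 2 (block), and in HDAC3 KO from 1 to 0 (DESeq2 size factors, block, offset, offset with block). For the interaction with ACs or NACs it went from 0 to 2 (DESeq2, no filter) or 1 (block, offset with block), and for the added interaction from 3 to 1 (at least 10 counts, all libraries in 1 fit, offset, offset with block) or 2 (DESeq2 size factors), with Cd68 among those called by DESeq2, with its size factors and without a filter and Scarb1 by DESeq2. The minimum of 10 counts left Marco and Olr1 untested in several comparisons. The causes were not tested.

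Fitted log2 values that turned in direction with every library kept were these, where 2 values are those of the offset alone and then with the block. Between the labels untreated they were Cd36 at 0.28 (offset), Scarb2 at 0.24 and 0.20, Stab1 at −0.56 and −0.67. Between the labels over all treatments they were Marco at 0.42 (block), 0.29 (offset with block), Olr1 at 0.15 and 0.15. For ACs against NACs in WT they were Olr1 at −0.015 and −0.039. For ACs against NACs in HDAC3 KO they were Cd36 at 0.99 and 1.05, Olr1 at 0.50 and 0.52, Stab1 at −0.41 and −0.39, Cd68 at −0.069 and −0.20, −0.12 (block). For ACs against untreated in WT they were Cd36 at 0.043 and 0.0044, Olr1 at 0.28 and 0.24, Stab1 at −0.42 and −0.41. For ACs against untreated in HDAC3 KO they were Scarb1 at 0.11 (block), Msr1 at −0.12 and −0.10, −0.069 (size factors), −0.061 (all libraries), Marco at 0.0797 and 0.73, 0.48 (block), Stab1 at −0.00855 (all libraries). For NACs against untreated in WT they were Olr1 at 0.31 and 0.31. For NACs against untreated in HDAC3 KO they were Scarb2 at −0.17 and −0.097, Stab1 at −0.098 (size factors), −0.098 (DESeq2), −0.13 (all libraries). For the interaction with ACs or NACs they were Cd36 at 0.64 and 0.73, Scarb2 at 0.25 and 0.29, Olr1 at 0.47 and 0.53, Lrp1 at −0.44 and −0.29, −0.024 (at least 10 counts). For the added interaction they were Scarb2 at −0.022 (offset with block). With library totals alone, the WT untreated means of Cd36, Msr1 and Stab1 were 313, 160.2 and 561 CPM.

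With each library left out in turn, the number of receptors called was 0 to 1 between the genotype labels with ACs, 0 to 2 between the labels with NACs, 0 to 3 between the labels untreated, 0 to 2 for ACs against NACs in HDAC3 KO, 0 to 3 for NACs against untreated in WT, 0 to 3 for NACs against untreated in HDAC3 KO, 0 to 1 for the interaction with ACs or NACs and 1 to 5 for the added interaction. Fitted log2 fold changes that turned in direction ranged as follows. Between the genotype labels with ACs they were Olr1 −0.21 to 0.61, Stab1 −0.026 to 0.48, Cd68 −0.75 to 0.23. Between the labels with NACs they were Scarb1 −0.59 to 0.092. Between the labels untreated they were Marco −3.34 to 0.30, Stab1 −0.25 to 0.55. Between the labels over all treatments they were Cd36 −0.042 to 0.36, Marco −0.64 to 0.45, Cd68 −0.12 to 0.22. For ACs against NACs in WT they were Cd36 −0.066 to 0.82, Scarb1 −0.70 to 0.0036, Msr1 −0.23 to 0.78, Olr1 −0.39 to 0.79. For ACs against NACs in HDAC3 KO they were Cd36 −0.36 to 0.36, Olr1 −0.48 to 0.047, Stab1 −0.10 to 0.36, Cd68 −0.52 to 0.39. For ACs against untreated in WT they were Marco −1.68 to 1.55, Olr1 −0.70 to 0.13, Stab1 −0.12 to 0.22, Lrp1 −0.52 to 0.049. For ACs against untreated in HDAC3 KO they were Scarb1 −0.58 to 0.33, Msr1 −0.37 to 0.34, Marco −0.77 to 1.65, Stab1 −0.16 to 0.73. For NACs against untreated in WT they were Olr1 −0.91 to 0.022. For NACs against untreated in HDAC3 KO they were Stab1 −0.23 to 0.59. For the interaction with ACs or NACs they were Scarb2 −0.42 to 0.20, Olr1 −1.20 to 0.20, Cd68 −0.24 to 0.87, Lrp1 −0.35 to 0.30.

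The count of all genes called ranged more widely: from 461 to 373 (block) and 1373 (DESeq2) with ACs, from 103 to 0 (all libraries in 1 fit) and 575 (no filter) with NACs, from 1404 to 0 (offset) and 3308 (all libraries) untreated, and from 904 to 252 (all libraries) and 1431 (DESeq2) for ACs against NACs in HDAC3 KO. For further comparisons it went from 1015 to 0 and 1784 and from 794 to 0 and 2280 (NACs against untreated in WT and HDAC3 KO), from 10 to 3 and 759 and from 4530 to 1118 and 5639 (the 2 interactions), and where it was 0 it reached 38 over all treatments, 47 for ACs against NACs in WT and 30 for ACs against untreated in HDAC3 KO (no filter) and 54 for ACs against untreated in WT (offset with block). With 1 library left out it was 0 to 1693 with ACs (the lowest without HDAC3 KO replicate 1, the highest without HDAC3 KO replicate 2), 0 to 3121 with NACs (the lowest without WT replicate 1, the highest without WT replicate 2), 0 to 5887 untreated (0 without WT replicate 2 or 3 or HDAC3 KO replicate 3, the highest without HDAC3 KO replicate 1), 0 to 3013 for ACs against NACs in HDAC3 KO (the lowest without ACs replicate 1, the highest without ACs replicate 2), 21 to 4232 and 0 to 4441 for NACs against untreated in WT and HDAC3 KO, 0 to 826 and 3043 to 6297 for the 2 interactions, 0 to 164 over all treatments (the highest without untreated HDAC3 KO replicate 1) and 0 to 16 for ACs against untreated in HDAC3 KO, so the shares of all genes called in the report move with single libraries. DESeq2 size factors moved the median of all genes by over 0.1 untreated (0.06 to 0.19), for ACs against untreated in WT (−0.11 to −0.0065) and HDAC3 KO (0.10 to −0.010), for NACs against untreated in HDAC3 KO (−0.03 to −0.21) and for the added interaction (0.12 to −0.27). Replicate numbers shared between groups were checked for pairing by correlating the deviations of same-numbered libraries from their group means. These correlations ranged from −0.33 to 0.46, in no comparison all above 0.1. For ACs against NACs in HDAC3 KO they were 0.088, 0.106 and 0.085. In WT, all were also above 0 for ACs and for NACs against untreated, and every other comparison had at least 1 below 0. Such values cannot show that libraries are unpaired. The main fits did not pair them, replicate number as a block served as an alternative, and whether same-numbered libraries came from the same animal was not tested. Depth limits Marco and Olr1, whose lowest libraries held 2 and 1 counts.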
